A study of Mus musculus with 9 samples.

Results

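Aminoacyl-tRNA synthetases join each amino acid to its transfer RNA (tRNA). The genes described here were chosen by symbol alone: a single-letter amino acid code followed by "ars", with or without a final digit, together with Eprs, Farsa and Farsb. This rule found 37 of the 23238 symbols counted. Of these, 20 encode the synthetases of the cytosol, and 17, whose symbols end in 2, encode those of mitochondria. All 37 were abundant enough to be tested, among 12859 genes tested in all.

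Cells keep separate sets of synthetases because mitochondria translate their own small genome. In the cytosol, a group of synthetases is held in the multisynthetase complex by the scaffold proteins AIMP1, AIMP2 and AIMP3 (gene Eef1e1), while the others act outside it. EPRS joins the glutamyl and prolyl enzymes in a single chain, and phenylalanyl-tRNA synthetase is built from the FARSA and FARSB subunits. Kars and Gars each encode both the cytosolic and the mitochondrial enzyme. Qars has no mitochondrial counterpart, because mitochondria charge the glutamine tRNA with glutamate through Ears2 and then amidate it. In many cells, transcription of cytosolic synthetases responds to amino acid shortage through the transcription factor ATF4.

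Expression was measured by 3′ RNA sequencing, which counts a single tag from each transcript's end, in gastrocnemius, a calf muscle, taken from C57BL/6 females whose stated age was 4 weeks. Each of 3 groups holds 3 libraries. Normal mice were injected with saline and drank water as the oral vehicle. Cisplatin mice had 4 injections of cisplatin, a platinum drug that damages DNA, at 3 mg/kg, and the oral water for 9 days. RP mice had those cisplatin injections and, in place of water, oral RP at 100 mg/kg over the 9 days; the title of the series names a Paeonia lactiflora extract, and the labels do not spell out RP. No group received RP without cisplatin. The labels do not say that each library came from its own mouse, so the spread behind each p-value is that between libraries and may be technical.

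Library totals ran from 8196030 to 10678342 counts. All 10 muscle fibre markers were detected in each group, and their summed level in CPM (counts scaled to a common library total) was 116766 to 136223 for Normal, 91634 to 114682 for Cisplatin and 129261 to 149684 for RP. Summed markers of several other cell types were lower in Cisplatin, but not those of all. The 9 fibroblast markers summed to 4712 to 7093 CPM for Normal, 486 to 1058 for Cisplatin and 3097 to 4902 for RP. The 8 macrophage markers summed to 217 to 287, 22.5 to 72.0 and 109 to 169 CPM in the same order. The 6 erythroid markers gave 4152 to 8980, 33.9 to 60.4 and 64.8 to 410 CPM, and the 8 tendon markers 195 to 394, 5.98 to 12.4 and 55.8 to 85.2 CPM. The 7 adipocyte markers gave 2265 to 4720, 504 to 988 and 2358 to 3007 CPM, and the 6 Schwann cell markers 216 to 366, 56.4 to 138 and 199.7 to 379 CPM. Fabp4 (mean 1395 CPM) and Car3 (1162 CPM) carried most of the adipocyte sum in Normal. All 7 adipocyte markers fell in Cisplatin, but for Adipoq, Cfd and Lep the Normal and Cisplatin libraries overlapped. The 5 satellite cell markers gave 88.8 to 154, 18.1 to 30.5 and 63.4 to 92.9 CPM. Of these 5, Chodl carried most of the Normal sum (mean 87.0 CPM, against 5.81 in Cisplatin and 47.3 in RP). Chodl and Myf5 fell in Cisplatin, while Pax7, Cdh15 and Vcam1 were not called. The sums of the 6 endothelial markers overlapped in all groups, at 194 to 240, 162 to 227 and 174 to 239 CPM. Single endothelial markers moved in opposite directions in Cisplatin. Cldn5 rose 3.78-fold, Kdr and Tie1 fell to 0.469 and 0.608 of the Normal level, and 3 were not called. The sums of the 5 neutrophil markers overlapped too, at 3.93 to 38.9, 9.63 to 68.3 and 4.36 to 11.5 CPM. Among these 5, Retnlg rose 13.8-fold in Cisplatin, from a mean of 0.559 CPM in Normal to 7.85 CPM. S100a8, S100a9 and Cxcr2 were not called, and Csf3r was not abundant enough to be tested. Lymphocyte markers summed to 54.3 to 68.1, 1.07 to 2.47 and 12.5 to 19.0 CPM. Nearly all of this sum was Cd74 (means of 58.1, 1.46 and 14.1 CPM), the only 1 of them abundant enough to be tested. Of the 7 lymphocyte markers found, Cd3e, Cd3g and Cd79a were among those with no count in Cisplatin; Slc4a1 (erythroid) and Kera (tendon) had none there either. Fewer cells of a type and less RNA per cell cannot be told apart in whole muscle. The part of these shifts in the synthetase results was not tested.

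In Normal muscle the cytosolic synthetases were the more abundant set. Their mean levels ran from 10.9 CPM for Vars, the valyl enzyme, to 265 CPM for Eprs, with a median of 50.2 CPM. The mitochondrial genes ran from 2.62 CPM for Pars2 (prolyl) to 65.3 CPM for Iars2 (isoleucyl), with a median of 10.2 CPM. Iars2 alone made up 29.3% of the mitochondrial sum. Because each transcript gives 1 tag whatever its length, these tag levels are not scaled by length. Counts per library were 84 to 6660 for cytosolic genes and 12 to 908 for mitochondrial ones, and standard errors (SE) of the log2 fold change in Cisplatin against Normal were 0.12 to 0.19 and 0.13 to 0.46.

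**Figure D1:**
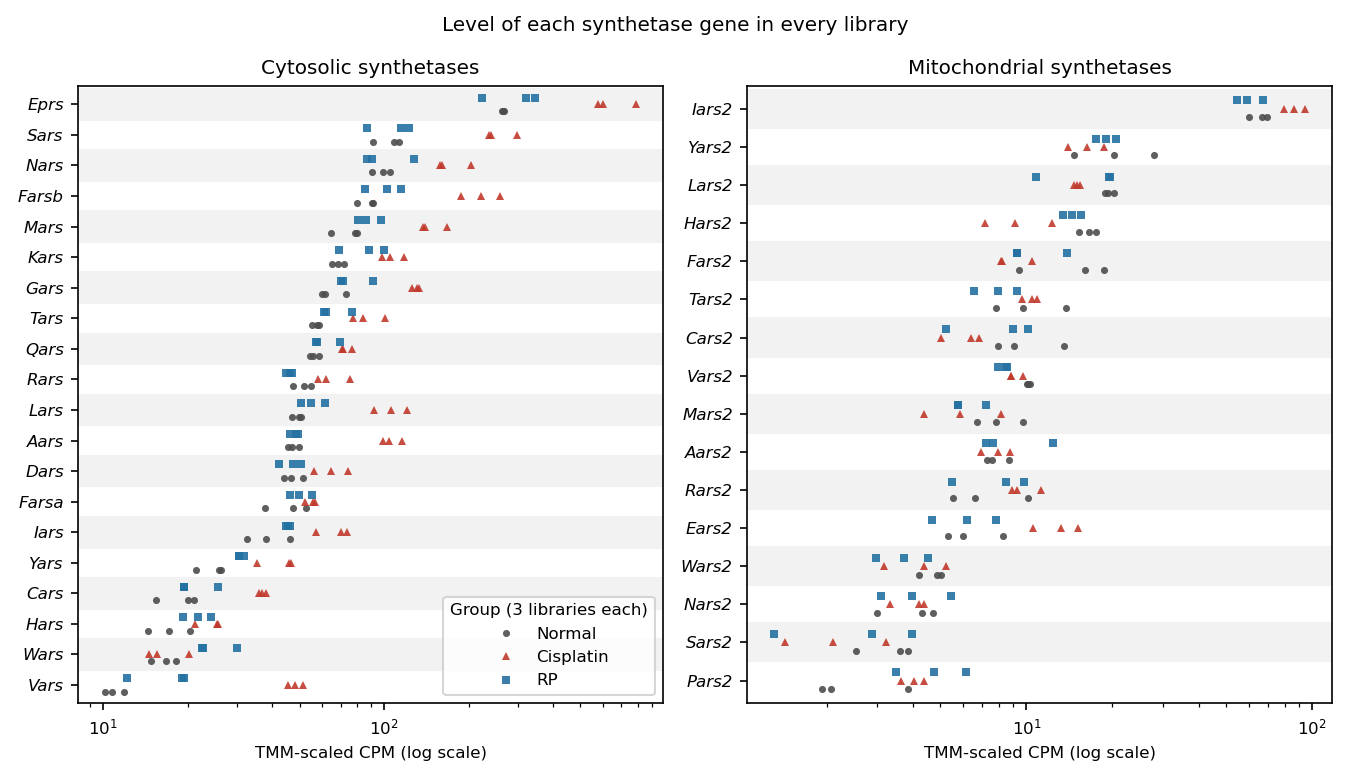
TMM-scaled CPM (log axis) of each of the 20 cytosolic and 16 of the 17 mitochondrial synthetase genes; each point is 1 library, coloured and shaped by group. Vars separates the Cisplatin libraries (45.3 to 51.5 CPM) from the Normal ones (10.1 to 11.9 CPM) most widely, while most mitochondrial genes show interleaved points.

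Cisplatin against Normal sets muscle of mice given the drug beside muscle of mice given saline. Cytosolic synthetase genes rose almost as a set, while mitochondrial ones did not move together. Of the 20 cytosolic genes, 18 rose and 0 fell, where a call throughout needs a Benjamini-Hochberg adjusted p under 0.05 in edgeR's quasi-likelihood test. Over all genes 54.5% were called, 26.3% risen and 28.2% fallen. The cytosolic median log2 fold change was 0.81, against -0.08 over all genes tested, and all 20 values were above 0. Of the 17 mitochondrial genes 2 rose, 4 fell and 11 were not called, with a median of -0.16. These shares, 11.8% risen and 23.5% fallen, were both below the shares of all genes. Every Cisplatin library lay above every Normal library for the 18 risen cytosolic genes; over all genes this held for 30.3%, and for 31.9% in the other direction.

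Vars, which charges valine, had the highest fold change of all 37 genes. Its level was 10.1, 10.7 and 11.9 CPM in the Normal libraries and 48.0, 45.3 and 51.5 CPM in Cisplatin. The groups were far apart, with a log2 fold change of 2.14 ± 0.19 (SE; adjusted p = 1.04e-06), which is 4.41-fold.

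Eprs was the most abundant synthetase transcript in both groups. It was even across Normal at 267, 265 and 264 CPM and stood at 576, 604 and 792 CPM in Cisplatin, highest in the third library. The log2 fold change was 1.31 ± 0.17 (adjusted p = 3.15e-05). Sars, the seryl enzyme, went from 91.3, 109 and 113 CPM to 237, 241 and 299 CPM, by 1.31 ± 0.16 (adjusted p = 1.48e-05). Aars, the alanyl enzyme, went from 47.2, 49.8 and 45.4 to 104, 99.2 and 116 CPM, by 1.16 ± 0.12 (adjusted p = 4.46e-06). Neither gene's groups overlapped. Lars, the leucyl enzyme, which also takes part in leucine sensing, went from 47.0, 50.5 and 49.6 to 91.8, 106 and 121 CPM, by 1.11 ± 0.14 (adjusted p = 1.81e-05). Gars, the glycyl enzyme of both compartments, went from 60.2, 61.7 and 73.3 to 126, 131 and 133 CPM, by 1.0 ± 0.14 (adjusted p = 4.45e-05). Kars, the lysyl enzyme of both compartments, rose less, from 68.6, 72.0 and 65.01 to 118, 105 and 98.2 CPM, by 0.64 ± 0.15 (adjusted p = 0.00212).

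Among the other cytosolic genes, Mars (methionyl, 0.99), Cars (cysteinyl, 0.97), Nars (asparaginyl, 0.82), Yars (tyrosyl, 0.80), Iars (isoleucyl, 0.78) and Tars (threonyl, 0.61) rose. Smaller rises were those of Hars (histidyl, 0.48), Dars (aspartyl, 0.46), Qars (glutaminyl, 0.38) and Rars (arginyl, 0.34). The Dars call was lost without Normal replicate 2 (adjusted p = 0.0506), and the Qars call without Normal replicate 1 (0.0649) or Cisplatin replicate 2 (0.0684). The Hars call was lost without Normal replicate 1 (0.0727) or 2 (0.125) or Cisplatin replicate 1 (0.0850) or 2 (0.0893). Rars was the least stable: its adjusted p was 0.139 and 0.0735 without Normal replicates 1 and 3, 0.0569 and 0.151 without Cisplatin replicates 2 and 3, and 0.0564 and 0.0510 without RP replicates 1 and 2. With library size as the only scaling, Hars (0.0886), Qars (0.0720) and Rars (0.0798) were not called either. Requiring at least 5 CPM in 3 libraries also ended the calls of Hars (0.0571) and Rars (0.0804), and Rars was not called with no filter (0.0711) or in a fit of those groups alone (0.0612). The other 14 risen cytosolic genes stayed called without any 1 library and under all 9 other settings.

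Wars, the tryptophanyl enzyme, which interferon induces in many cells, was not called. It was at 14.8, 16.7 and 18.1 CPM in Normal and 20.2, 14.5 and 15.6 CPM in Cisplatin, so the groups overlapped. Its log2 fold change was 0.01 ± 0.19 (adjusted p = 0.959), with a 95% interval of -0.39 to 0.42 that does not reach the cytosolic median; the sign was negative with library size as the only scaling (-0.05).

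The subunits of phenylalanyl-tRNA synthetase differed. Farsb, the beta subunit, went from 80.1, 90.6 and 91.1 CPM in Normal to 222, 187 and 259 CPM in Cisplatin, by 1.35 ± 0.15 (adjusted p = 8.20e-06). Farsa, the alpha subunit, was at 52.6, 47.4 and 37.7 CPM in Normal and 55.8, 52.3 and 56.7 CPM in Cisplatin, 0.26 ± 0.15 (adjusted p = 0.148), with overlapping groups. The ratio of Farsb to Farsa was 1.52, 1.91 and 2.41 in Normal, 3.98, 3.58 and 4.57 in Cisplatin and 2.31, 1.54 and 2.21 in RP. Cisplatin thus lay above both other groups without overlap, at the smallest p that an exact two-sided permutation test of 3 against 3 allows, 0.1.

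By place in the cell, 8 of 8 genes of the multisynthetase complex rose (median 0.71), as did 10 of the 12 cytosolic synthetases outside it (median 0.89). The complex genes summed to 652 ± 8.14 CPM (SD, n = 3) in Normal and 1289 ± 146 in Cisplatin, and the others to 594 ± 30.8 and 1203 ± 122. By catalytic fold, 8 of 9 class I genes and 9 of 10 class II genes rose, with medians of 0.80 and 0.73; Eprs holds an enzyme of each class. The call counts were alike across both divisions, and a difference between these divisions was not tested.

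**Figure D2:**
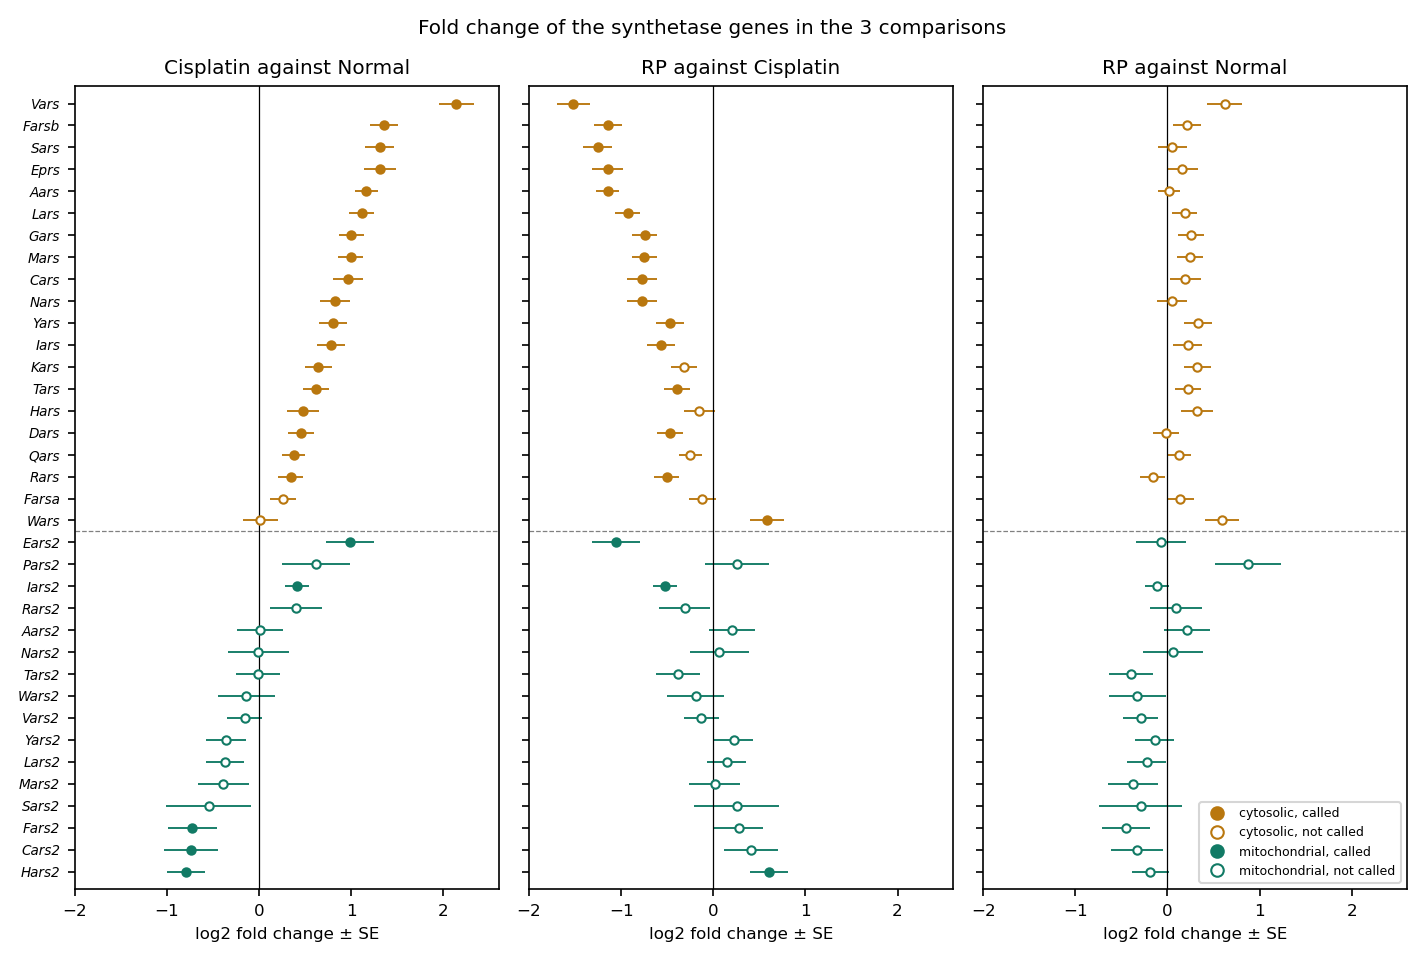
Log2 fold change ± SE (edgeR) of the 20 cytosolic and 16 of the 17 mitochondrial genes in the 3 comparisons, ordered by Cisplatin against Normal within the cytosolic set (above the dashed line) and the mitochondrial set (below it); filled points are called. All 20 cytosolic points lie above 0 in the first panel, 19 lie below 0 in the second, and none is filled in the third.

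A smaller share of the mitochondrial genes was called (35.3%) than of all genes (54.5%), and those called went both ways. Ears2, which charges glutamate in mitochondria, was at 5.31, 8.32 and 6.01 CPM in Normal and 10.6, 13.2 and 15.1 CPM in Cisplatin, without overlap. Its log2 fold change of 0.98 ± 0.26 (adjusted p = 0.00593) was the highest of the set. Iars2 rose by 0.41 ± 0.13 (adjusted p = 0.0178), from 65.3 ± 4.95 to 86.8 ± 7.56 CPM, a call lost without Normal replicate 3 (adjusted p = 0.0585) or Cisplatin replicate 1 (0.0645), or with library size as the only scaling (0.0633).

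Hars2 (histidyl) fell by 0.79 ± 0.21 (adjusted p = 0.00526), from 16.5, 15.2 and 17.5 CPM in Normal to 7.16, 9.12 and 12.2 CPM in Cisplatin. Its 3 Cisplatin libraries were spread widely, yet all lay below Normal. Cars2 (-0.74, adjusted p = 0.0461) and Fars2 (-0.72, adjusted p = 0.0336) fell too. Neither call held throughout. Cars2 was not called with the replicate block (adjusted p = 0.0614) or by limma-voom (0.0671), nor was Fars2 by limma-voom (0.0512), and both calls were lost on leaving out single libraries. For Cars2 the adjusted p was 0.0609 and 0.238 without Normal replicates 1 and 3, 0.136, 0.0632 and 0.0803 without Cisplatin replicates 1, 2 and 3, and 0.0579 without RP replicate 1. For Fars2 it was 0.0921 and 0.169 without Normal replicates 2 and 3, and 0.0979 and 0.0910 without Cisplatin replicates 2 and 3. Of all 17 mitochondrial genes, the number fallen was 2 without Normal replicate 1 or Cisplatin replicate 1 or 2, and 1 without Normal replicate 3 or Cisplatin replicate 3. The number risen was 1 without Cisplatin replicate 1.

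The 11 mitochondrial genes not called were Aars2 (0.01), Tars2 (-0.01), Nars2 (-0.01), Wars2 (-0.14), Vars2 (-0.16), Yars2 (-0.36), Lars2 (-0.37), Mars2 (-0.39), Sars2 (-0.55), Rars2 (0.40) and Pars2 (0.62). The 95% intervals of 2 of these 11 held the cytosolic median of 0.81, so for the other 9 the precision sufficed to set them apart from a change of that size. Lars2, the mitochondrial leucyl enzyme, was at 18.8, 19.3 and 20.3 CPM in Normal and 15.0, 14.7 and 15.5 CPM in Cisplatin. These values did not overlap, but the fold change was not called (-0.37 ± 0.21, adjusted p = 0.151). Without Normal replicate 3 Pars2 was called as risen (adjusted p = 0.0479), and without Normal replicate 2 Yars2 was called as fallen (adjusted p = 0.0402). Aars2, Nars2, Tars2 and Wars2 were so near 0 that their sign changed with scaling, tool or the library left out.

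Summed over genes, the cytosolic set went from 1201, 1262 and 1272 CPM in Normal to 2343, 2335 and 2800 CPM in Cisplatin, and the mitochondrial set from 221, 213 and 236 to 221, 226 and 216 CPM. The cytosolic sum was thus higher in every Cisplatin library, whereas the mitochondrial sums overlapped. The third Cisplatin library, with the highest cytosolic sum, also had the lowest TMM factor (0.850). The ratio of the sums, which no library scaling can change, was 5.43, 5.94 and 5.39 in Normal and 10.6, 10.4 and 13.0 in Cisplatin. In RP the cytosolic sums were 1429.6, 1226 and 1535 CPM, the mitochondrial sums 180, 204 and 212 CPM and the ratios 7.93, 6.01 and 7.24. All 3 RP ratios lay above Normal and below Cisplatin.

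**Figure D3:**
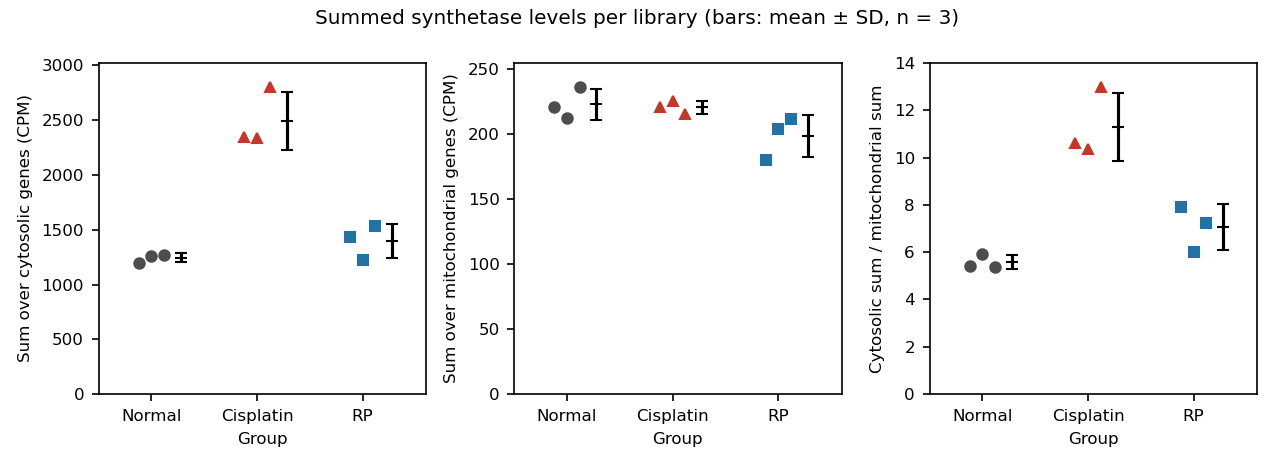
Sum of TMM-scaled CPM over the 20 cytosolic genes (left), over the 17 mitochondrial genes (middle), and their ratio (right) in every library; black bars give the mean ± SD of 3 libraries. The ratio is 5.59 ± 0.306 in Normal, 11.3 ± 1.44 in Cisplatin and 7.06 ± 0.968 in RP.

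Each mitochondrial gene was also set against the cytosolic gene for the same amino acid within each library; Eprs served for both Ears2 and Pars2, and Farsa for Fars2. In 11 of these 17 pairs the log2 ratio was higher in every Cisplatin library than in every Normal library, in 0 it was lower, and in 6 the groups overlapped. Single genes lay above in 30.3% and below in 31.9% of all genes, and no such share was computed for ratios of other gene pairs. RP ratios lay below Cisplatin in 9 pairs and above in 0, and above Normal in 8 and below in 0. As single genes, 27.8% of all genes lay below Cisplatin in RP and 29.0% above. Against Normal, 9.65% of all genes lay above in RP and 9.52% below. These too are not shares of ratios. Vars/Vars2 moved most, from 0.02, 0.08 and 0.20 in Normal to 2.45, 2.36 and 2.40 in Cisplatin. Its RP values of 1.17, 0.61 and 1.18 lay between the other groups. Rars/Rars2 (mean 2.83 in Normal and 2.73 in Cisplatin), Wars/Wars2 (1.82 and 1.99) and Eprs/Ears2 (5.37 and 5.67) were among the overlapping pairs. Iars/Iars2 was the only pair with the mitochondrial transcript higher in all 9 libraries, with log2 ratios of -1.03 to -0.26.

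**Figure D4:**
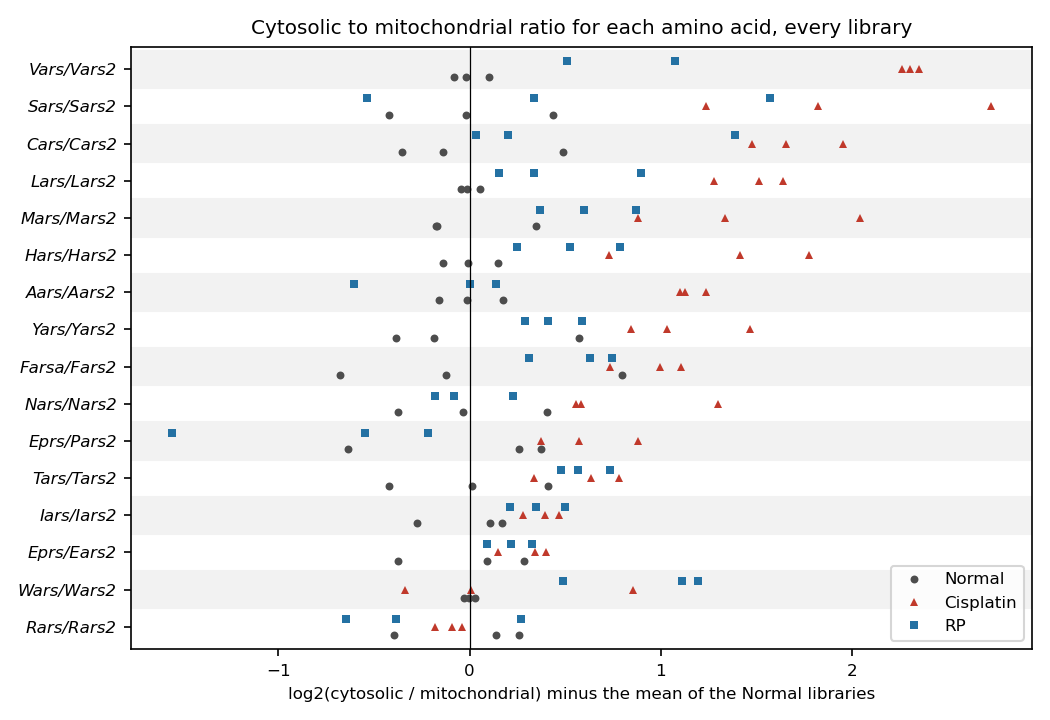
Log2 ratio of the cytosolic gene to its mitochondrial counterpart for 16 of the 17 pairs, minus the mean of the 3 Normal libraries, with 1 point per library. Cisplatin points lie right of all Normal points in 10 of the 16 pairs drawn, Vars/Vars2 furthest.

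Hars and Hars2 lie head to head on opposite strands, with exons that overlap at their starts (GRCm38, GENCODE M21). Hars spans chromosome 18, 36766528 to 36783205, on the minus strand, and Hars2 spans 36783008 to 36792562 on the plus strand. Hars went from 17.1, 14.4 and 20.3 to 25.6, 25.4 and 21.2 CPM, while Hars2 fell as given above. The ratio of Hars to Hars2 was 1.04, 0.947 and 1.16 in Normal and 3.57, 2.78 and 1.73 in Cisplatin, again without overlap (exact permutation p = 0.1, the smallest possible).

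For 3′ tags, what matters is whether another gene's exons lie in the last 500 bases of a synthetase gene, since the strand setting of the counting is not given. Among the genes for which this holds are Aars (Exosc6, on the same strand), Cars2 (Naxd), Fars2 (Nrn1), Farsb (Sgpp2), Iars2 (Rab3gap2), Mars (Ddit3) and Yars (C77080). Ddit3, which encodes the stress factor CHOP, went from 52.1 to 78.8 CPM, a smaller difference than that of Mars (74.4 to 148 CPM). Exosc6 went from 8.32 to 17.6 CPM and Aars from 47.5 to 106 CPM. Sgpp2 was at 0.120 CPM in Normal and 0.907 in Cisplatin, far below Farsb, while Rab3gap2 was at 48.6 and 55.2 CPM, near the level of Iars2. How reads were divided within these pairs is uncertain.

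The start regions of the members were searched for the letters TGATGNAA, the core of the C/EBP-ATF response element to which ATF4 binds, on both strands. RefSeq promoters (GRCm38.p6, 250 bases before to 50 after the start site) were at hand for 26 of the 37 genes. A match stood in 5 of 12 cytosolic genes (41.7%) and in 0 of 14 mitochondrial genes, against 4.51% of 27025 genes. The 5 genes were Aars, Gars, Iars, Tars and Yars, and all 5 rose in Cisplatin, with a median of 0.80; of the 7 cytosolic genes with a promoter and no match, 6 rose, with a median of 0.64. The form TGATGCAA, found in 1.03% of genes, is that of Aars, Iars, Tars and Yars. The stretches from 120 bases before the start site to 20 after it are shown, 5′ to 3′ on the gene's strand, with the matches in capitals (TTGCATCA and TTTCATCA are matches on the other strand). Sars, which rose more than any of the 5, is shown as a gene without a match. A match is a description of the letters and does not show binding.
Aars, chr8:111033722-111033861, plus strand: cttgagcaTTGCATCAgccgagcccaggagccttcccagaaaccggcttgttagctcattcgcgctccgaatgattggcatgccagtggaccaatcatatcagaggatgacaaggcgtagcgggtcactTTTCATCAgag
Gars, chr6:55037881-55038020, plus strand: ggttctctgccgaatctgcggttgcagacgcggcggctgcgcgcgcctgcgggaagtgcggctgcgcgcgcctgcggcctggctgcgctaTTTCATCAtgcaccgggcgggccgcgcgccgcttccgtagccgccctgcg
Iars, chr13:49682010-49682149, plus strand: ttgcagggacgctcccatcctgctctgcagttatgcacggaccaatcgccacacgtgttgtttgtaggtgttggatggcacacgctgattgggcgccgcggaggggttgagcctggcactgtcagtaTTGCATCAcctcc
Tars, chr15:11399639-11399778, minus strand: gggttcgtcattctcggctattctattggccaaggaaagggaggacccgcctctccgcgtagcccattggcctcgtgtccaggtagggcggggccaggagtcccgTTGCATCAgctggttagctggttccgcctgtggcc
Yars, chr4:129189783-129189922, plus strand: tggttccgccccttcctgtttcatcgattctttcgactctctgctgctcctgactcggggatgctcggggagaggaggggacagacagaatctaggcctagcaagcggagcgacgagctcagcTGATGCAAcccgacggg
Sars, chr3:108445240-108445379, minus strand: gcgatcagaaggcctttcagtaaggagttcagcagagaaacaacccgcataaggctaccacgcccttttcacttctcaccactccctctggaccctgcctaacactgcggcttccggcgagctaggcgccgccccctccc

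Of the 3 scaffold genes of the complex, 1 rose, 1 fell and 1 was not called in Cisplatin. Aimp2 was at 244, 213 and 166 CPM in Normal and 55.4, 61.2 and 54.2 CPM in Cisplatin. The groups were far apart, with a log2 fold change of -1.87 ± 0.19 (adjusted p = 4.27e-06), a fall to 0.274 of the Normal level. Overlap with exons of neighbouring genes was looked up for the synthetase genes only, so it was not examined for Aimp2. Aimp1 was at 157, 156 and 145 CPM in Normal and 183, 176 and 254 CPM in Cisplatin, a rise of 0.42 ± 0.14 (adjusted p = 0.0242) that was lost without Normal replicate 3 (0.0626) or Cisplatin replicate 3 (0.101). Eef1e1 was at 10.8 and 9.77 CPM and was not called (-0.14). In RP, Aimp2 was at 169, 246 and 146 CPM, above every Cisplatin library (log2 fold change 1.72 ± 0.19, adjusted p = 1.31e-05 against Cisplatin). Aimp1 against Cisplatin was -0.37 ± 0.14 (adjusted p = 0.0492), and this call was lost without any 1 of 7 libraries, the 3 Normal, the 3 RP and the third Cisplatin library (0.0530 to 0.224). It was also lost with library size only (0.147), no filter (0.0525), at least 5 CPM in 3 libraries (0.0765), limma-voom (0.0519) and a fit of those groups alone (0.0808).

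**Figure D5:**
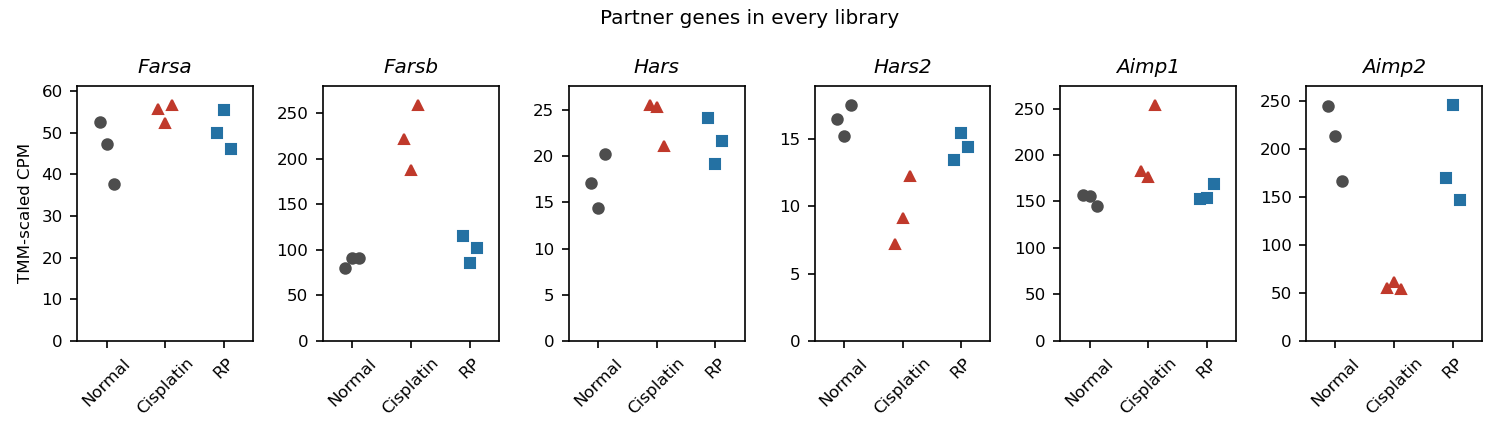
TMM-scaled CPM in every library (3 per group) for the subunits Farsa and Farsb, the neighbours Hars and Hars2, and the scaffolds Aimp1 and Aimp2; each vertical axis starts at 0 and has its own scale. In Cisplatin, Farsb (187 to 259 CPM) stands above the other groups, and Hars2 (7.16 to 12.2 CPM) and Aimp2 (54.2 to 61.2 CPM) stand below them.

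Genes that work beside the synthetases were counted by list, to be read against the 26.3% of all genes risen and 28.2% fallen in Cisplatin. Of 20 genes for maturation and handling of cytosolic tRNA, 12 rose (60.0%) and 1 fell in Cisplatin (median 0.68). The tRNA modifying enzymes Cdkal1 (2.12), Trmt1 (2.06), Trmt6 (1.39) and Nsun2 (1.09) rose. Of 16 genes for mitochondrial tRNA, 4 rose (25.0%) and 3 fell (18.8%), both below the shares of all genes (median 0.33). Trnt1, which adds the CCA end to tRNAs of both compartments, rose by 1.45 and Hsd17b10, a part of mitochondrial ribonuclease P, by 0.89. In the amidotransferase that acts after Ears2, Gatb rose by 0.69 and Qrsl1 fell by 0.90. Of 11 elongation factors 4 rose and 0 fell (median 0.19), so that 36.4% were called against 54.5% of all genes: Eef2 (1.04), Eef1a2 (0.69), Eef1g (0.63) and Eef1d (0.46).

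Of the 7 relatives of the synthetases outside the symbol rule, 6 were tested, 3 rose and 2 fell. Aarsd1, an editing protein, rose by 0.64, and Dtd1, which removes D-amino acids from tRNA, by 0.61. Pstk, a kinase of the selenocysteine pathway, fell by 0.77. Tarsl2, another threonyl enzyme, fell by 0.45 (adjusted p = 0.0323), a call lost without Normal replicate 2 (0.0829) or 3 (0.136) or Cisplatin replicate 1 (0.128).

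ATF4 and its targets were read in the same libraries. Of 28 genes in that list 22 were tested; 10 rose (45.5%) and 5 fell (22.7%) in Cisplatin (median 0.40), against 26.3% and 28.2% of all genes. Atf4 itself was at 342, 343 and 363 CPM in Normal and 1090, 1051 and 1280 CPM in Cisplatin, by 1.71 ± 0.17 (adjusted p = 2.62e-06). Ppp1r15a, which promotes dephosphorylation of eIF2, rose by 2.67, whereas Chac1, which degrades glutathione, fell by 2.5 and Nupr1, a stress cofactor, by 2.6. Asparagine synthetase, Asns, a known ATF4 target named after its values were seen, was at 3.9 CPM in Normal and 3.1 CPM in Cisplatin and was not called (-0.33, adjusted p = 0.492). Ddit3, also in the list and likewise named after its values were seen, rose by 0.60 (adjusted p = 0.0043). Of 7 genes for eIF2 and its kinase pathway 4 rose and 2 fell: Gcn1l1 (1.82), a partner of the amino acid sensing kinase GCN2, Impact (1.41) and the eIF2 subunit Eif2s1 (1.04) rose, and Eif2ak1, the haem-regulated kinase, fell by 0.75. Most cytosolic synthetases and Atf4 were higher in the same libraries, where 10 of the 22 tested genes of the ATF4 list rose and 5 fell. Whether ATF4 had a part in the synthetase changes was not tested.

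RP against Cisplatin sets muscle of mice given RP and the drug beside muscle of mice given the drug alone. It shares the Cisplatin libraries with the comparison above, so opposite signs are not independent evidence. Of the 20 cytosolic genes, 15 fell, 1 rose and 4 were not called, with a median of -0.65 against 0.07 over all genes; 48.8% of all genes were called, 24.6% risen and 24.2% fallen. Of the 17 mitochondrial genes, 2 fell, 1 rose and 14 were not called, with a median of 0.15. RP libraries lay below Cisplatin without overlap for 16 cytosolic and 4 mitochondrial genes and above it for 1 of each; over all genes these shares were 27.8% and 29.0%. With library size as the only scaling, the median of all genes moved to 0.21 and the number of fallen cytosolic genes to 11.

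Vars was at 19.1, 12.1 and 19.4 CPM in RP, below every Cisplatin library (log2 difference -1.52 ± 0.18, adjusted p = 2.05e-05). Sars was at 115, 86.6 and 123 CPM (-1.25 ± 0.16, adjusted p = 3.01e-05) and Eprs at 321, 223 and 346 CPM (-1.15 ± 0.17, adjusted p = 0.000126). In these genes, the second RP library was the lowest of the 3. Aars was at 46.4, 48.4 and 49.4 CPM (-1.15 ± 0.12, adjusted p = 7.80e-06) and Farsb at 115, 85.4 and 102 CPM (-1.14 ± 0.15, adjusted p = 4.51e-05). Lars was at 50.8, 55.0 and 61.8 CPM (-0.93 ± 0.14, adjusted p = 0.000108) and Gars at 71.7, 70.5 and 91.1 CPM (-0.74 ± 0.14, adjusted p = 0.000583). No RP library reached Cisplatin in any of these genes.

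Smaller falls were those of Nars (-0.77), Cars (-0.77), Mars (-0.75), Iars (-0.56), Rars (-0.50), Dars (-0.47), Yars (-0.47) and Tars (-0.39). The Dars call was lost without RP replicate 1 (adjusted p = 0.0593). The Yars call was lost without Cisplatin replicate 2 (0.0686) or 3 (0.0587) or RP replicate 1 (0.0537), and the Tars call without Cisplatin replicate 3 (0.125) or RP replicate 1 (0.113) or 2 (0.117). With library size as the only scaling, Dars (0.0645), Iars (0.0585), Yars (0.0854) and Tars (0.115) were not called. Tars was also not called at 5 CPM in 3 libraries (0.0531) or in a fit of those groups alone (0.0590). Kars (-0.32), Qars (-0.25), Hars (-0.15) and Farsa (-0.12) were not called. For Kars, at 99.9, 69.2 and 88.2 CPM in RP, the first RP library overlapped Cisplatin, and without that library the fall was called (adjusted p = 0.0369). Farsa was at 49.97, 55.5 and 46.2 CPM in RP, a range that overlaps both other groups, and its sign was positive with library size as the only scaling (0.03).

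Wars was the cytosolic gene that rose, to 22.4, 22.6 and 30.0 CPM in RP. All 3 libraries lay above the Cisplatin and the Normal libraries, with a log2 fold change of 0.58 ± 0.18 against Cisplatin (adjusted p = 0.0184). This call was lost without Cisplatin replicate 2 (0.0785) or 3 (0.0574) or RP replicate 3 (0.0917).

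In the mitochondrial set, Ears2 fell to 6.20, 4.66 and 7.86 CPM (-1.05 ± 0.26, adjusted p = 0.00435) and Iars2 to 54.3, 59.2 and 67.3 CPM (-0.53 ± 0.13, adjusted p = 0.00494), both without overlap with Cisplatin. Hars2 rose to 13.4, 15.5 and 14.4 CPM (0.60 ± 0.21, adjusted p = 0.0260), a call lost without Cisplatin replicate 1 (0.104) or 2 (0.0729) or RP replicate 2 (0.0775) or 3 (0.0530). Lars2 was at 10.8, 19.6 and 19.5 CPM in RP and was not called (0.15 ± 0.21, adjusted p = 0.589); its first RP library lay below all other libraries of the series for this gene. The other 13 mitochondrial genes not called had log2 fold changes from -0.38 (Tars2) to 0.41 (Cars2), and the 95% intervals of 4 of all 14 held the cytosolic median of -0.65.

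In RP against Cisplatin the same lists were counted. Of the 20 cytosolic tRNA genes 10 fell (50%, against 24.2% of all genes) and 1 rose (median -0.54), among them Cdkal1 (-2.03) and Trmt1 (-1.34). Of the 16 mitochondrial tRNA genes 3 fell (18.8%, below the share of all genes) and 0 rose (median -0.16). Atf4 was at 448, 328 and 526 CPM in RP, lowest in the second library, and fell by 1.39 on the log2 scale. Its list was mixed: of 22 genes tested, 10 fell (45.5%) and 5 rose (22.7%), with a median of -0.33. Over all genes 24.2% fell and 24.6% rose.

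RP against Normal sets muscle given both agents beside muscle given neither. No synthetase gene was called: 0 of 37 by edgeR's quasi-likelihood test, by DESeq2 and by limma-voom, where 5, 3 and 3 genes had an unadjusted p under 0.05. Of all 12859 genes tested, 1649, 1516 and 1754 had an unadjusted p under 0.05 by the same tools. Over all genes 0.505% were called, 0.187% risen and 0.319% fallen; with library size as the only scaling 60.0% of the called genes were risen, against 36.9% here. The cytosolic median was 0.20 and the mitochondrial one -0.23, against -0.01 over all genes, and 18 of 20 cytosolic and 4 of 17 mitochondrial values were above 0. RP lay above Normal without overlap for 6 cytosolic genes, Lars, Mars, Tars, Vars, Wars and Yars, and below it for Rars; it lay below Normal for 2 mitochondrial genes, Vars2 among them. Over all genes 9.65% lay above and 9.52% below.

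The 5 genes with an unadjusted p under 0.05 were Vars (0.62 ± 0.19, adjusted p = 0.182), Wars (0.59 ± 0.18, adjusted p = 0.189), Kars (0.32 ± 0.15, adjusted p = 0.372), Yars (0.33 ± 0.15, adjusted p = 0.385) and Pars2 (0.87 ± 0.36, adjusted p = 0.330). Without RP replicate 2 Vars was called (0.82, adjusted p = 0.0352). Vars was at 16.9 ± 4.12 CPM (SD, n = 3) in RP, 10.9 ± 0.897 in Normal and 48.3 ± 3.09 in Cisplatin. For Aars the estimate against Normal was 0.02, for Sars 0.06 and for Eprs 0.16, each with overlapping groups, and the sign for Aars and Sars changed when single libraries were left out. Missing the threshold does not show that RP and Normal muscle were alike: the 95% interval for Eprs ran from -0.21 to 0.53.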

How the data were processed

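Gastrocnemius RNA from 9 samples, 3 per group, was made into 3′ libraries with a QuantSeq kit from 500 ng of RNA, per the labels' protocols. The authors deposited raw read counts per gene, 1 table of 23282 rows per sample. The submitters' processing notes name Bowtie2, edgeR and mm10; which tool counted reads, whether by strand and on which gene models is not given in the sources used here. The 79 rows that share 35 symbols were summed; no synthetase was among them. Samples were grouped by their labels. Genes were filtered by edgeR's filterByExpr, scaled by TMM and tested with edgeR 4.0.16 (R 4.3.3) by glmQLFit over all 9 libraries and glmQLFTest for each of 3 comparisons, with Benjamini-Hochberg adjustment over 12859 genes and a threshold of 0.05. Each SE is the size of the log2 change over the root of its F statistic. CPM are counts over the TMM-scaled library total. Library totals and standard errors set the precision. Only single gene ratios, Farsb to Farsa and Hars to Hars2 among them, were compared by exact permutation tests. The ratios of sums and the other amino acid pairs were described without a test. Rn45s, a ribosomal RNA precursor, took 7.38 to 12.8% of the counts.

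In simulated counts with 12549 genes, the test called 56 of 100 genes changed by 1 on the log2 scale, 81 of 97 changed by 2, and 6 of 12352 unchanged ones for Cisplatin against Normal. The simulated share of changed genes was far below the 54.5% called in the data, so these rates need not hold there. Other scalings, filters, DESeq2 1.42.0, limma-voom (limma 3.58.1), fits of the groups compared only, a replicate block, leaving out Rn45s and leaving out each library were tried. The genes and lists were chosen with earlier results of these data known. Every synthetase is named except 1 mitochondrial gene, which is not reported here by name but is in the counts and sums; those with a call and a log2 change of at least 1, together with Eprs, Farsa, Farsb, Kars, Gars, Wars and Lars2, are given in every library, and up to 4 called genes by p are named per other list.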

Additional observations from a re-analysis of the deposited data

How the results depend on the processing

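The number of cytosolic genes risen in Cisplatin was 15 to 18 and that fallen in RP against Cisplatin 13 to 15 when single libraries were left out. Over the same omissions the cytosolic genes risen were 0 to 1 in RP against Cisplatin and 0 to 1 in RP against Normal. Mitochondrial genes risen in Cisplatin were 1 to 2, fallen 1 to 4, and risen in RP against Cisplatin 0 to 1. All genes called were 6123 to 7076, 5211 to 6232 and 22 to 116 in the 3 comparisons. In RP against Normal they were 65, against 293 with no filter and 229 by DESeq2. With library size only, 1 mitochondrial gene rose in Cisplatin; with limma-voom 2 fell. The Normal ratio of sums was 6.12 without Lars2. Deviations from the group mean correlated at -0.12 to 0.16 between samples with the same replicate number and at -0.19 to 0.12 between others. With 3 libraries per group, these ranges cannot decide whether the numbers pair samples. With the replicate block, 6988, 6292 and 61 genes were called, and of the synthetases 23, 19 and 0.

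Signs changed only for genes not called. In Cisplatin against Normal, Aars2 was -0.073 (library size only), -0.063 (at least 5 CPM in 3 libraries), -0.0034 (limma-voom) and -0.00020 (replicate block). Nars2 was 0.0025 (RLE), 0.0028 (DESeq2), 0.017 (limma-voom), 0.0062 (replicate block) and 0.0028 (without Rn45s). Tars2 was 0.029 (limma-voom) and 0.015 (replicate block). Wars was -0.053 (library size only), -0.056 (at least 5 CPM in 3 libraries) and -0.0042 (limma-voom). In RP against Cisplatin, Farsa was 0.029 and Vars2 0.015 with library size only, and Mars2 was -0.0012 (RLE) and -0.0015 (DESeq2). Leaving out single libraries gave these ranges in Cisplatin against Normal: Aars2 -0.060 to 0.0996, Nars2 -0.170 to 0.130, Tars2 -0.172 to 0.243, Wars -0.136 to 0.112 and Wars2 -0.312 to 0.039. In RP against Cisplatin they were Aars2 -0.091 to 0.348, Mars2 -0.185 to 0.279, Nars2 -0.178 to 0.240 and Sars2 -0.115 to 0.616. In RP against Normal they were Aars -0.0046 to 0.058, Ears2 -0.267 to 0.145, Lars2 -0.359 to 0.0071 and Sars -0.042 to 0.196. The cause of these changes was not tested. Mitochondrial genes had as few as 12 counts in a library, which limits their precision.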
